A study of Mus musculus with 20 samples.

Results

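Histones are the proteins around which DNA is wound, and the mouse genome carries them in many gene copies. The genes described here are the rows of the deposited RNA count table whose symbol names a clustered histone gene (Hist1 to Hist4), together with H1fnt, Hils1, H1f0, H1fx, H2afx, H2afy, H2afz, H3f3a and H3f3b. They number 77 of 23366 gene symbols: 5 testis variants (Hist1h1t, Hist1h2aa, Hist1h2ba, H1fnt and Hils1), 7 replacement or other variants, and 65 replication-dependent copies. Of these, 24 had enough reads to be tested, namely 4 testis variants, 7 replacement or other variants and 13 replication-dependent copies. The other 53 are described by their counts. The replication-dependent class was assigned by symbol alone, as every other clustered histone symbol, and includes the pseudogene Hist3h2bb-ps.

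Replication-dependent histone genes sit in clusters and are transcribed in S phase, when new DNA has to be packaged. Their mRNAs typically end in a stem-loop in place of a poly(A) tail. Replacement variants such as H3.3 and H2A.Z are made outside S phase from single genes with ordinary polyadenylated mRNAs. The male germ line adds its own variants: H1t and the H2A and H2B variants TH2A and TH2B in spermatocytes, and the linker histones H1fnt (H1T2) and Hils1 in spermatids, before transition proteins and protamines take the place of most histones.

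RNA was sequenced from wild-type C57Bl/6J mice at 5 stages with 2 biological replicates each, 10 libraries in all. The stages were the whole testis at postnatal days 1, 3 and 7, and 2 fractions of adult testis (70 to 80 days) enriched by sedimentation at unit gravity, mixed leptotene/zygotene (L/Z) spermatocytes and pachytene spermatocytes. No stage carried a mutation or treatment. The labels give a purity of about 90% for pachytene and more than that for L/Z by microscopy, with no somatic cells seen. A whole testis also holds Sertoli, Leydig and other somatic cells, so each spermatocyte stage set against day 7 compares enriched adult germ cells with a juvenile tissue, and fewer cells of a type cannot be told apart from less RNA per cell.

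Reads counted on genes ranged from 3597360 (L/Z replicate 1) to 22181395 (day 3 replicate 1) per library. A floor of 3 counts corresponded to 0.0999 to 1.46 CPM, the counts scaled to a common library size with factors from the trimmed mean of M-values. The CPM were not divided by transcript length, so they are compared between stages and not between genes. The L/Z libraries stood apart from their label. The 12 spermatid markers, all detected in both, summed to 72255 and 77591 CPM there, against 9717 and 6358 CPM in pachytene, 4.41 and 5.22 CPM on day 7, 4.93 and 34.1 CPM on day 3, and 40.9 and 42.7 CPM on day 1. Prm1 and Prm2, the protamines of condensing spermatids, averaged 8051 and 21759 CPM in the L/Z libraries. The 12 leptotene/zygotene markers summed to 731 and 1215 CPM there and to 854 and 1635 CPM in pachytene, so they did not set the L/Z libraries above pachytene. Summed Sertoli markers came to 50.5 to 296 CPM in the 4 spermatocyte libraries, against 3489 to 4748 CPM in the 6 whole-testis libraries. The libraries are called L/Z below by their label, and every comparison of L/Z with another stage rests on them.

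The 5 testis variants were near the limit of detection in the juvenile testis and present in both spermatocyte stages. Their summed level was 2.84 and 2.93 CPM on day 1, 0.300 and 2.69 CPM on day 3, 0.166 and 0.184 CPM on day 7, 3694 and 3391 CPM in L/Z, and 711 and 431 CPM in pachytene. H1fnt and Hils1, the 2 spermatid linker histones, supplied nearly all of the sum in the spermatocyte stages. Among tested genes, 4 of 4 testis variants were higher in L/Z than on day 7 and 4 of 4 in pachytene than on day 7 by edgeR's quasi-likelihood test at an adjusted p under 0.05. Across all 16872 genes tested, 36.5% were higher in L/Z than on day 7 and 35.1% in pachytene than on day 7. None of the 4 passed the filter on low counts in every stage, and 3 of them, Hils1, Hist1h1t and Hist1h2ba, reached its level in spermatocyte libraries alone. A difference from the testis stages is thus built into their being tested, and their counts and p-values against day 7 are given as descriptions.

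H1fnt, which in mouse is needed for normal spermatid chromatin condensation, stood at 2.10 and 2.07 CPM on day 1, 0.0333 and 1.79 CPM on day 3 and 0 in both day 7 libraries. It then stood at 2657 and 2212 CPM in L/Z and at 392 and 206 CPM in pachytene. Every spermatocyte library lay above every testis library, and every L/Z library above every pachytene library. Because day 7 held no count of 13247563 and 11813196 reads, the difference is a bound: H1fnt was at least 26237-fold higher in L/Z and at least 3224-fold higher in pachytene than 3 counts over the day 7 libraries allow. Its fitted log2 fold changes carried adjusted p = 1.46e-05 for L/Z against day 7 and 4.45e-05 for pachytene against day 7 (edgeR), but their size depends on the prior count. Pachytene lay below L/Z by a log2 fold change of -3.03 ± 0.80 (SE, adjusted p = 0.0283). That fall lost its call in DESeq2 and without either day 1 or either pachytene library (adjusted p up to 0.124).

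Hils1, a linker-histone-like protein of elongating spermatids, had 6 and 8 counts on day 1, 1 and 10 counts on day 3, 2 and 1 counts on day 7, 2118 and 11712 counts in L/Z and 1538 and 1584 counts in pachytene. In CPM it averaged 0.715 ± 0.0349 on day 1, 0.424 ± 0.552 on day 3, 0.0859 ± 0.0346 on day 7, 1102 ± 101 in L/Z and 266 ± 67.1 in pachytene (SD, n = 2 each). As with H1fnt, the spermatocyte libraries did not overlap with the testis libraries or with each other. The ratio to day 7 was 13178 in L/Z (95% counting interval 4508 to 63910) and 2940 in pachytene (1005 to 14264), with 3 counts on day 7 in all. The fitted log2 fold change was 13.47 ± 0.92 in L/Z against day 7 (SE, adjusted p = 1.24e-06) and -2.05 ± 0.52 in pachytene against L/Z (adjusted p = 0.0211). The call in pachytene against L/Z was lost without any one of the day 1, day 7 or pachytene libraries (adjusted p up to 0.0945).

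The low levels of H1fnt and Hils1 in the juvenile testis followed the spermatid markers from library to library. Both were lowest in day 3 replicate 1 and on day 7, where the 12 markers summed to 4.41 to 5.22 CPM, and higher on day 1 and in day 3 replicate 2, where they summed to 34.1 to 42.7 CPM. In the spermatocyte stages the marker sum and both linker histones were higher in L/Z than in pachytene. The part of spermatid transcripts in these levels was not tested.

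**Figure D1:**
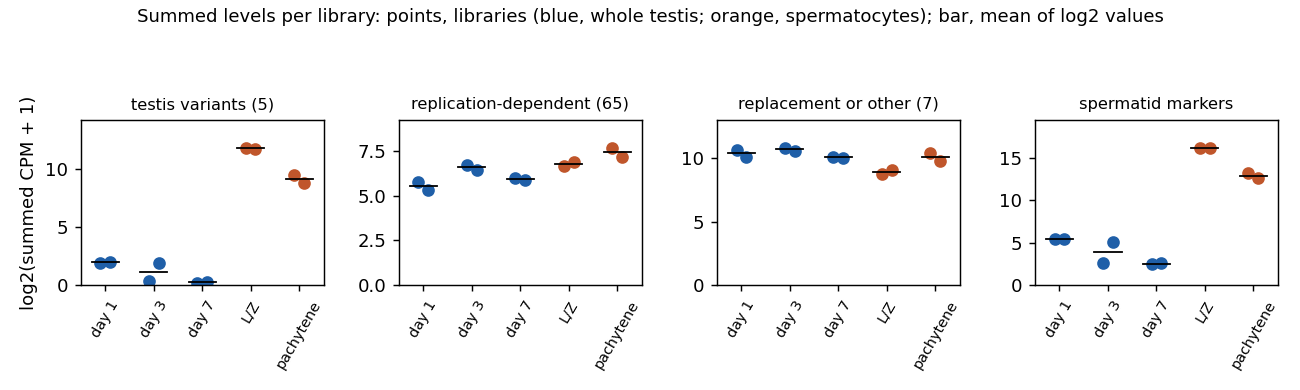
Summed level per library as log2(summed CPM + 1) for the 5 testis variants, the 65 replication-dependent copies, the 7 replacement or other variants and the 12 spermatid markers, over the 5 stages. Points are libraries and bars the mean of the log2 values. The testis variants and the spermatid markers are both highest in the 2 L/Z libraries, at 3694 and 3391 CPM and at 72255 and 77591 CPM. The replication-dependent sum is highest in pachytene, where Hist2h2be alone is at 115 and 76.3 CPM.

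The other 3 testis variants are those of spermatocytes, and they had far fewer counts. Hist1h1t, the linker histone H1t of mid to late pachytene, was at 0 and 0.0863 CPM on day 1, 0.167 and 0.0814 CPM on day 3, 0 and 0.123 CPM on day 7, 3.40 and 4.81 CPM in L/Z and 3.46 and 3.44 CPM in pachytene. The 4 spermatocyte libraries lay above the 6 testis libraries, and the L/Z and pachytene libraries overlapped. Its log2 fold change was 5.96 ± 0.79 in L/Z against day 7 (SE, adjusted p = 7.46e-05, edgeR), 5.65 ± 0.79 in pachytene against day 7 (adjusted p = 1.24e-04) and -0.31 ± 0.55 in pachytene against L/Z (adjusted p = 0.747).

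Hist1h2ba, which encodes TH2B, had 0 and 1 counts on day 1, 1 and 0 counts on day 3, 1 and 0 counts on day 7, 5 and 3 counts in L/Z and 6 and 18 counts in pachytene. The spermatocyte libraries again lay above all testis libraries, and the deepest of them, L/Z replicate 2, had only 0.301 CPM. The log2 fold change was 4.44 ± 1.42 in L/Z against day 7 (SE, adjusted p = 0.0160) and 5.60 ± 1.18 in pachytene against day 7 (adjusted p = 0.00172). The L/Z call was lost under plain library sizes, without day 7 replicate 2 and without L/Z replicate 1 (adjusted p up to 0.0953). Hist1h2aa, which encodes TH2A and lies beside Hist1h2ba, had 1 count in the 6 testis libraries, 2 and 9 in L/Z and 7 and 8 in pachytene. It was too low to be tested, and against 3 counts over the day 7 libraries its level was at least 10.5-fold higher in L/Z and at least 14.1-fold higher in pachytene.

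**Figure D2:**
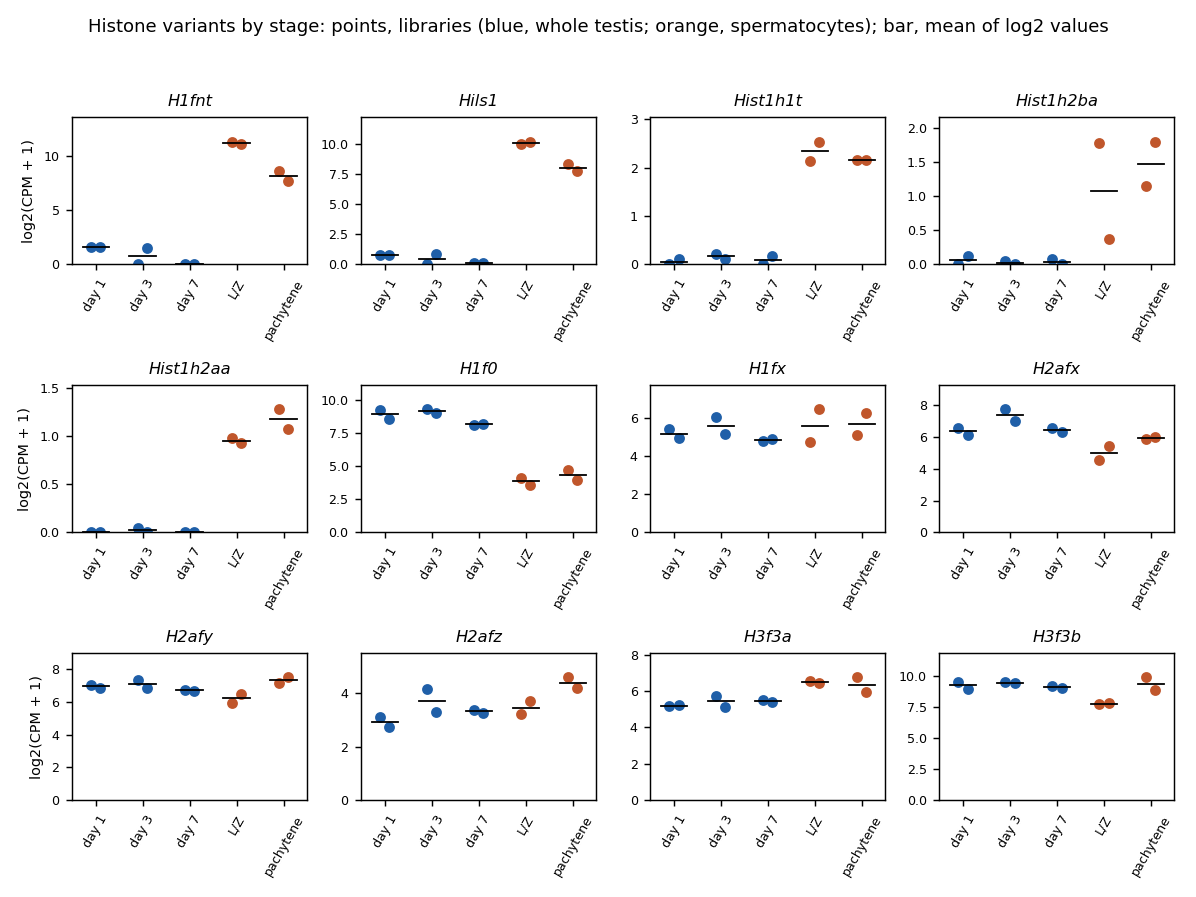
Level of the 5 testis variants and the 7 replacement or other variants in each library as log2(CPM + 1), each panel on its own axis from 0. Points are libraries (blue, whole testis; orange, spermatocytes) and bars the mean of the log2 values; the testis variants are near 0 in blue and above it in orange, with H1fnt at 2657 and 2212 CPM in L/Z, whereas H1f0 is at 277 to 617 CPM in blue and 11.0 to 25.4 CPM in orange.

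The promoters of 4 of these genes are shown with that of Hist1h2bp, a replication-dependent copy. All were low in the testis libraries and higher in the spermatocyte libraries, but they differed in their change from L/Z to pachytene. Each window is the 250 bases before the RefSeq start on the GRCm38.p6 assembly, written 5′ to 3′ on the gene's strand. The windows lie at chr15:98257308-98257557 (minus strand) for H1fnt, chr11:94967343-94967592 (plus) for Hils1, chr13:23695561-23695810 (plus) for Hist1h1t, chr13:23934157-23934406 (minus) for Hist1h2ba and chr13:21787238-21787487 (plus) for Hist1h2bp. Capitals mark, on either strand, the octamer of H2A and H2B promoters (ATTTGCAT), the TATA box (TATAAA), the CCAAT box (CCAAT) and the cyclic AMP response element (TGACGTCA); no marked match overlaps another.
H1fnt: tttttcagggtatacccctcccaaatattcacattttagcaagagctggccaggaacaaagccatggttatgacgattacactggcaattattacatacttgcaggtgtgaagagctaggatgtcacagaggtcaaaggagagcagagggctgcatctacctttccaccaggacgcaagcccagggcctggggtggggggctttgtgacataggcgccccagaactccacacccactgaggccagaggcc
Hils1: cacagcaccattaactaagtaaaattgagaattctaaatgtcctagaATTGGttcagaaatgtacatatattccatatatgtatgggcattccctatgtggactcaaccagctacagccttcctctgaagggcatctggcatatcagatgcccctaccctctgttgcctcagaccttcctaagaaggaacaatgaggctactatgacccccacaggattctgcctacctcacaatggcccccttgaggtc
Hist1h1t: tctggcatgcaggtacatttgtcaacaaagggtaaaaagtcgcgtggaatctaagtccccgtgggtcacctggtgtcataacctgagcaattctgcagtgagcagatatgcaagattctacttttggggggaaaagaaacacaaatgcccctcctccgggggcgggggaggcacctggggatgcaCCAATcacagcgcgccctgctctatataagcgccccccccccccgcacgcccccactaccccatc
Hist1h2ba: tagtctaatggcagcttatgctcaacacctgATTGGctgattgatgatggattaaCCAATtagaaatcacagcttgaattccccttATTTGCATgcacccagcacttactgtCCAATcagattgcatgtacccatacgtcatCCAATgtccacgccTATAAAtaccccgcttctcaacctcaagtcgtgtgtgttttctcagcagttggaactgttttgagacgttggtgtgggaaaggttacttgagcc
Hist1h2bp: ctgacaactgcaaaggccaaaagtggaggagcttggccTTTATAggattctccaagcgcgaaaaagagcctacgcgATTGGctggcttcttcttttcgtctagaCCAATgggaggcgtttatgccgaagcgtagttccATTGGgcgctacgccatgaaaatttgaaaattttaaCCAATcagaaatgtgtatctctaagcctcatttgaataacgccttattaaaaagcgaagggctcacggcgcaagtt

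By exact match, the H1fnt window held none of the 4 motifs. Those of Hils1 and Hist1h1t held a CCAAT box each, the first on the opposite strand. Near matches were not counted, such as tataag in the Hist1h1t window beside the TATA box letters TATAAA. The Hist1h2ba window held the octamer at -164, a TATA box at -94 and 4 CCAAT boxes, counted from the start of transcription to the motif's first base. Because Hist1h2ba and Hist1h2aa are divergent neighbours, 220 bases of this window also belong to that of Hist1h2aa. Of 58 windows of replication-dependent copies, 11 (19.0%) held the octamer, 27 (46.6%) the TATA box, 47 (81.0%) the CCAAT box and 4 (6.90%) the cyclic AMP element. Over all 32851 windows of the same length the shares were 1.60%, 12.4%, 33.8% and 1.55%. The octamer fell within H2A and H2B copies, in 6 of 16 and 5 of 15 windows, and was in no window of an H1, H3 or H4 copy among 5, 10 and 12. Several H2A and H2B copies are divergent neighbours whose windows can overlap, as those of Hist1h2bp and Hist1h2an do by 239 bases. Because motifs were read on either strand, a single site can count for both genes of a pair, so these windows are not independent.

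The 65 replication-dependent copies gave few reads and differed from each other. Of these, 9 had no count in any library, 48 had 1 to 99 counts over the 10 libraries and 8 had 100 or more. The 5 copies with the most counts, Hist2h2be, Hist1h1c, Hist3h2a, Hist1h2bc and Hist1h2bp, held 84.3% of the counts of the class, at 2750, 2369, 2220, 818 and 774 counts. With Hist1h4i (246), Hist2h3c1 (194) and Hist2h2aa2 (167) the share came to 90.0%. These counts are not scaled for length. Copies with a RefSeq gene span of at least 1000 bases, which is long for a class of short genes without introns, numbered 6 and held 41.5% of the counts, among them Hist2h2be, Hist1h2bc and Hist1h2bp. The Hist1 cluster supplied 51 copies and 5016 counts, Hist2 10 copies and 3256 counts, Hist3 3 copies and 2288 counts, and Hist4 a single copy with 33. Whether the libraries were selected for poly(A) is not given in the sources used here, and its part in these low counts was not tested.

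**Figure D3:**
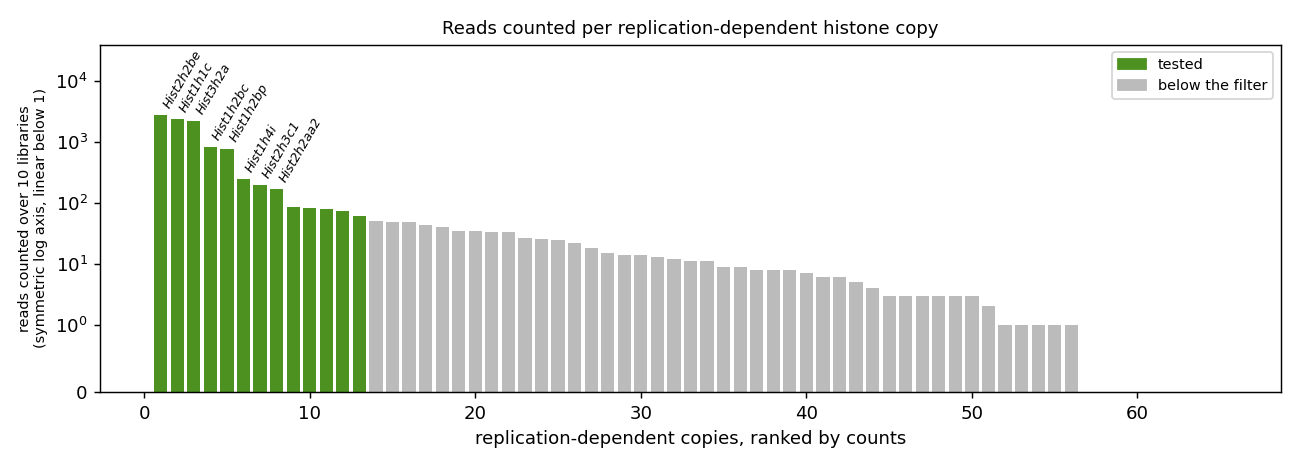
Reads counted over the 10 libraries for each of the 65 replication-dependent copies, ranked by counts on a symmetric log axis that is linear below 1. Green bars are the 13 copies tested and grey bars those below the filter; the first 8 bars, from 2750 counts (Hist2h2be) to 167 (Hist2h2aa2), hold 90.0% of the counts, and 9 copies have none.

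Over the stages the summed level of the class was 53.5 and 39.6 CPM on day 1, 106 and 84.6 CPM on day 3, 63.2 and 56.8 CPM on day 7, 101 and 116 CPM in L/Z, and 206 and 142 CPM in pachytene. The class thus held 39.6 CPM or more in every library. Its sums by histone type rest on few copies and are no measure of a whole type. Summed H1 copies averaged 36.7 ± 9.27 CPM on day 3, 16.6 ± 1.74 CPM on day 7, 5.48 ± 4.63 CPM in L/Z and 5.61 ± 4.43 CPM in pachytene (SD, n = 2). Summed H2B copies averaged 30.1 ± 0.123 CPM on day 3, 19.8 ± 0.0635 CPM on day 7, 72.6 ± 5.01 CPM in L/Z and 121 ± 32.8 CPM in pachytene. Hist1h1c made up most of the H1 sum on days 3 and 7, with means of 33.0 and 14.9 CPM. Hist2h2be and Hist1h2bp made up most of the H2B sum in L/Z (means of 30.0 and 39.2 CPM) and pachytene (95.7 and 20.0 CPM). In pachytene Hist2h2be alone held 115 and 76.3 CPM of the class sum. Copies with at least 1 count numbered 17 and 28 in L/Z and 25 and 26 in pachytene, against 41 and 38 on day 7, at depths that differed between libraries. These sums are descriptions and were not tested.

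Between days 1 and 3, and between days 3 and 7, no histone gene passed the test among 24. In the first step edgeR called 0% of all genes. DESeq2 called 0.446% of all genes and no histone gene. By edgeR, 5 of the 24 had an unadjusted p under 0.05, as did 1097 of all 16872 genes. In the second step edgeR called 1.49% of all genes (0.931% higher and 0.563% lower). DESeq2 called 5.6% of all genes and, of the histone genes, H1fnt alone, which had 1 and 22 counts in the day 3 libraries. By edgeR, 5 of the 24 had an unadjusted p under 0.05, as did 2395 of all 16872 genes. The 13 tested replication-dependent copies had a median log2 fold change of 1.04 on day 3 against day 1 and of -0.38 on day 7 against day 3, beside -0.0044 and -0.02 for all genes. The first median is the value of Hist1h2bp, with 5 counts on day 3 and 1 on day 1. Of the 13 copies, 5 reached the level of the filter in spermatocyte libraries alone, so these medians are no measure of the class. Hist1h4i, an H4 copy, stood at 3.93 and 2.28 CPM on day 3 against 0.370 and 0.345 CPM on day 1, and Hist1h2bc, an H2B copy, at 12.3 and 10.9 CPM on day 3 against 3.20 and 3.36 CPM on day 1. Their libraries did not overlap, with adjusted p = 0.273 and 0.693 (edgeR). In a fit of the 6 whole-testis libraries alone, chosen after seeing the data, H1f0, H2afx, Hist1h1d and Hist1h2bc were called lower on day 7 than on day 3, where that fit called 14% of all genes.

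In L/Z against day 7, 17 of 24 tested histone genes passed the test, 11 higher and 6 lower, where 78.5% of all genes passed (36.5% higher and 42% lower), so the share called was no larger than that of all genes. The split depends on scaling: it was 8 higher and 9 lower under plain library sizes, which moved the median log2 fold change of all genes to -1.71, against -0.31 in the fit reported. The replication-dependent copies split 6 higher, 3 lower and 4 past in neither direction of 13, with a median of 1.33, whereas all 4 testis variants were higher with a median of 9.71. All genes tested had a median of -0.31. Of the 13 copies, 5 (Hist1h2bp, Hist2h2aa2, Hist1h3a, Hist2h3c2 and Hist1h4a) reached the level of the filter in spermatocyte libraries alone. Their rise is built into their being tested, so the split and the median are no measure of all 65 copies.

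Those 5 copies rose from very low levels, and their p-values are given as descriptions. Hist1h2bp, an H2B copy, had 1 and 0 counts on day 1, 4 and 1 counts on day 3, none on day 7, 65 and 466 counts in L/Z, and 112 and 125 counts in pachytene. All spermatocyte libraries lay above all testis libraries. Against 3 counts over day 7 it was at least 506-fold higher in L/Z (adjusted p = 2.04e-06, edgeR) and at least 223-fold higher in pachytene (adjusted p = 4.18e-06). It is the copy nearest to H1fnt and Hils1 in this respect, with no testis library above 0.133 CPM. Its start faces that of Hist1h2an, with which its window shares 239 bases and which had 3 counts over all libraries. Hist2h2aa2, an H2A copy, was at 4.38 and 9.52 CPM in L/Z and 4.27 and 4.82 CPM in pachytene, against 0.0552 and 0.0614 CPM on day 7. Its log2 fold change was 6.76 ± 0.78 in L/Z against day 7 and 6.06 ± 0.79 in pachytene against day 7 (SE, adjusted p = 3.02e-05 and 7.67e-05). Hist1h4a (H4) rose by 6.68 ± 1.21 on the log2 scale in L/Z (adjusted p = 5.97e-04), Hist2h3c2 (H3) by 3.65 ± 0.75 and Hist1h3a (H3) by 3.37 ± 0.57 (adjusted p = 0.00130 and 3.94e-04). Hist1h4a rested on L/Z replicate 2, at 6.11 CPM against 0.486 CPM in replicate 1, and lost its call without it (adjusted p = 0.188).

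Hist2h2be, an H2B gene known in mouse for its expression in olfactory neurons, passed the filter in every stage and rose in both steps. It was at 12.7 and 10.9 CPM on day 1, 15.5 and 15.3 CPM on day 3, 11.2 and 12.5 CPM on day 7, 32.6 and 27.5 CPM in L/Z, and 115 and 76.3 CPM in pachytene. Both pachytene libraries lay above both L/Z libraries, and those above all testis libraries. The log2 fold change was 1.33 ± 0.28 in L/Z against day 7 (SE, adjusted p = 0.00140), 1.68 ± 0.28 in pachytene against L/Z (adjusted p = 0.00347) and 3.01 ± 0.28 in pachytene against day 7 (adjusted p = 9.35e-06). The first of these was -0.048 under plain library sizes, which is 1.66 above the median of all genes in that fit. The others kept their call under every alternative tried.

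Of the 3 copies that fell in L/Z against day 7, only Hist1h1c was higher in every testis library than in every spermatocyte library. Hist1h1c, the linker histone H1.2 of dividing and resting somatic cells, was at 17.1 and 9.32 CPM on day 1, 41.4 and 24.6 CPM on day 3, 15.8 and 14.1 CPM on day 7, 3.89 and 0.601 CPM in L/Z, and 6.92 and 2.07 CPM in pachytene. No spermatocyte library reached the lowest testis library. It fell by 3.33 ± 0.84 on the log2 scale in L/Z against day 7 (SE, adjusted p = 0.00441) and by 1.78 ± 0.68 in pachytene against day 7 (adjusted p = 0.0360). Hist1h4i fell by 3.54 ± 0.79 in L/Z (adjusted p = 0.00214) and Hist1h2bc by 3.07 ± 0.99 (adjusted p = 0.0165). Hist1h4i was at 0.486 and 0.100 CPM in L/Z against 2.32 and 1.97 CPM on day 7, but at 0.370 and 0.345 CPM on day 1. Hist1h2bc had 6 and 1 counts in L/Z, or 2.92 and 0.100 CPM. It was at 6.62 and 6.20 CPM on day 7 and 3.20 and 3.36 CPM on day 1. Each of the 3 calls in L/Z was lost without L/Z replicate 2, the deeper and lower of the L/Z libraries. That of Hist1h2bc was also lost in DESeq2 and with only the stages compared. The call of Hist1h1c in pachytene was lost under 10 of 18 alternatives. Summed Sertoli markers stood at 144 and 50.5 CPM in L/Z against 3916 and 4032 CPM on day 7, and the part of somatic cells in these falls was not tested.

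**Figure D4:**
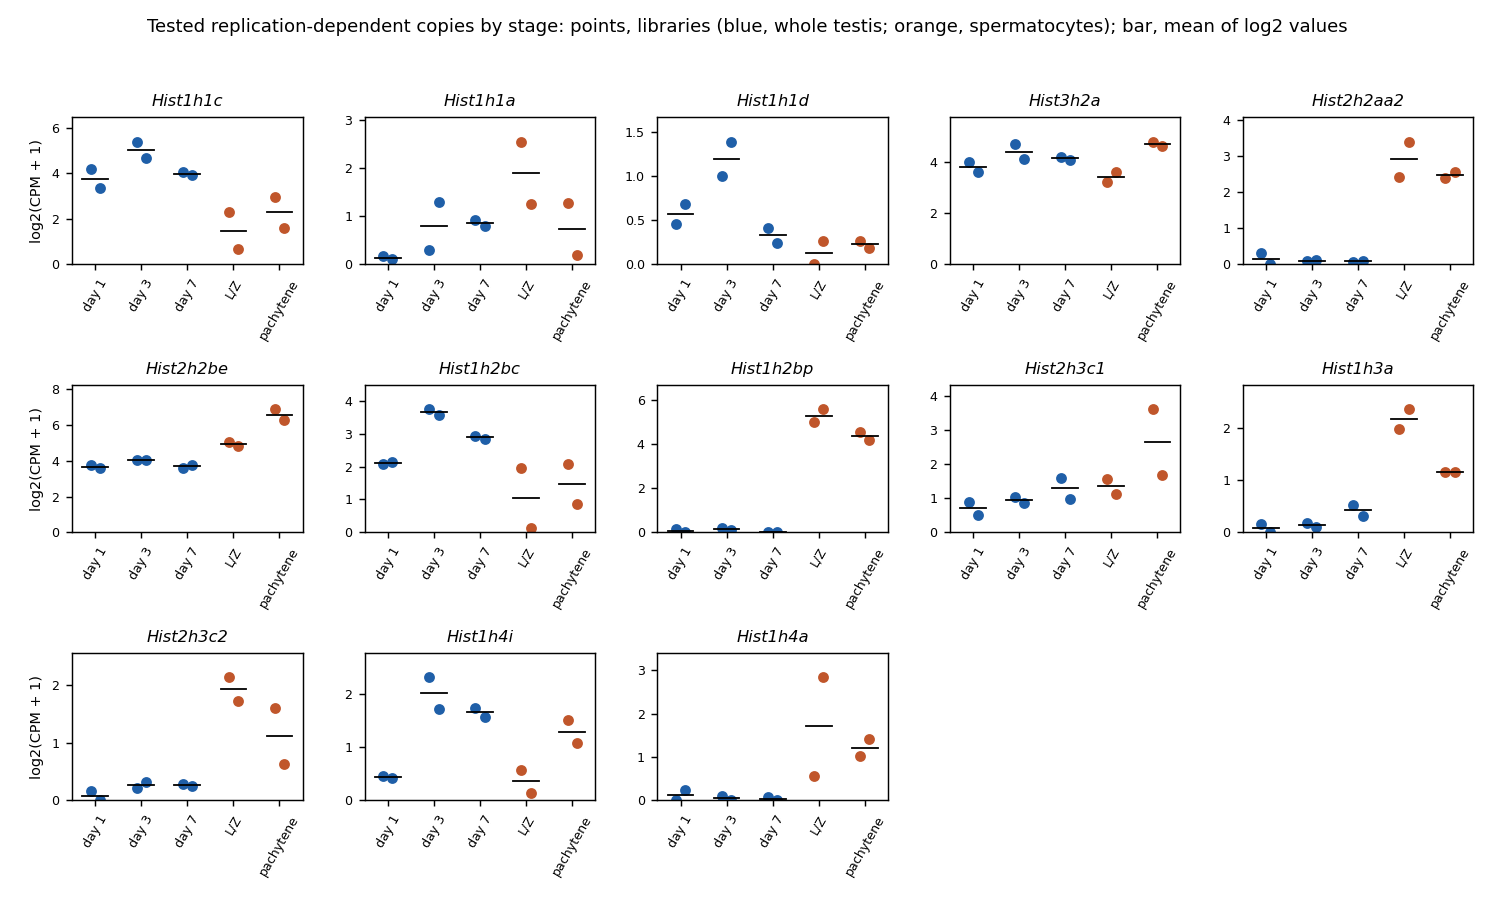
Level of the 13 tested replication-dependent copies in each library as log2(CPM + 1), each panel on its own axis from 0. Points are libraries (blue, whole testis; orange, spermatocytes) and bars the mean of the log2 values; Hist1h2bp and Hist2h2aa2 are near 0 in blue and above it in orange, Hist1h1c shows the opposite, and Hist2h2be is highest in pachytene at 115 and 76.3 CPM.

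In pachytene against L/Z, 7 of 24 histone genes passed the test, 5 higher and 2 lower, where 22.2% of all genes passed (9.03% higher and 13.2% lower). The calls were 0 higher and 2 lower of 4 testis variants (H1fnt and Hils1, above), against 3 higher and 0 lower of 13 copies (Hist1h4i, Hist2h2be and Hist3h2a). The medians were -1.18 and 0.02, beside -0.06 for all genes. Hist3h2a, an H2A copy, was at 27.1 and 24.0 CPM in pachytene against 8.27 and 11.3 CPM in L/Z, a log2 fold change of 1.34 ± 0.33 (SE, adjusted p = 0.0195, edgeR), lost without pachytene replicate 1 and with only the stages compared. Hist1h4i was at 1.83 and 1.10 CPM in pachytene against 0.486 and 0.100 CPM in L/Z (2.96 ± 0.86, adjusted p = 0.0358), and its call was lost under 8 of 16 alternatives. The count of 7 fell when 1 pachytene library or 1 day 1 library was left out, and the share of all genes called fell too. When only the stages compared were fitted, 3 histone genes passed, where 6.83% of all genes did. Replicates of the same number deviated together in these stages (correlation 0.746), and in both the library of replicate 1 had the larger share of reads not aligned (39.2% in L/Z and 42.1% in pachytene, against 19.9% and 18.8% in replicate 2). With the replicate number as a block in the spermatocyte stages, chosen after seeing the data, 11 histone genes passed, 7 higher and 4 lower, where 37.7% of all genes passed (16% higher and 21.8% lower), and the 7 were among them.

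In pachytene against day 7, 15 of 24 histone genes passed, 13 higher and 2 lower, where 75.2% of all genes passed (35.1% higher and 40.1% lower). Under plain library sizes the split was 8 higher and 5 lower. The replication-dependent copies gave 7 higher and 1 lower of 13, and the testis variants 4 higher of 4, with medians of 1.80 and 8.53 beside -0.27 for all genes, and the filter bears on both splits as in L/Z. With the replicate number as a block in the spermatocyte stages, the calls of Hist1h3a and Hist1h1c were lost (adjusted p = 0.0607 and 0.0543). Hist2h3c1 (H3) stood at 11.2 and 2.20 CPM in pachytene against 2.04 and 0.983 CPM on day 7 (2.09 ± 0.71, adjusted p = 0.0212), and its call was lost without pachytene replicate 1, without day 7 replicate 2, under plain library sizes and with only the stages compared. A fit without the L/Z libraries was chosen after seeing the data. There 14 histone genes passed, 11 higher and 3 lower, where 78.6% of all genes passed (36.1% higher and 42.5% lower). Of the 14, 11 were shared with the 15. The comparisons share stages with each other, so calls in one are not independent of those in another.

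Some of these copies are neighbours, and whether neighbours moved together was not tested. By the order of RefSeq genes, Hist2h2ab, Hist2h2ac, Hist2h2be, Hist2h3c2, Hist2h2aa2, Hist2h2aa1 and Hist2h3c1 follow each other in the Hist2 cluster. Hist1h2bb, Hist1h2ab, Hist1h3b, Hist1h4b, Hist1h4a, Hist1h3a and Hist1h1a do so in the Hist1 cluster. The first 4 of these Hist1 copies were too low to be tested, at 12, 8, 0 and 14 counts over all libraries. Hist1h1a, an H1 copy, passed no test (1.65 ± 0.99 in L/Z against day 7, SE, adjusted p = 0.150, edgeR). Hist2h2aa1 had no count in any library. Hist2h2ac and Hist2h2ab were too low to be tested, and their values were looked up after those of their neighbours. Hist2h2ac had 17 counts in pachytene against 0 on day 7, at least 16.0-fold higher than 3 counts allow. Hist2h2ab had 22 counts in pachytene against 2 on day 7, a ratio of 31.1 (95% counting interval 7.64 to 273). Whether the counting used strand is not given in the sources used here, so reads across overlapping neighbours cannot be told apart, and near-identical copies can share or lose reads.

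The replacement and other variants were present in every library, and all 7 were tested. Their summed level was 1673 and 1139 CPM on day 1, 1865 and 1506 CPM on day 3, 1135 and 1079 CPM on day 7, 448 and 549.8 CPM in L/Z, and 1347 and 877 CPM in pachytene. In L/Z against day 7, 1 was higher and 3 were lower, where 36.5% and 42% of all genes were. In pachytene against day 7, 2 were higher and 1 was lower, where 35.1% and 40.1% of all genes were. The 4 and 3 calls of 7 are smaller shares than the 78.5% and 75.2% of all genes called. Under plain library sizes these splits were 0 higher and 5 lower, and 0 higher and 2 lower.

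H1f0, the linker histone H1.0 of quiescent and differentiated cells, showed the largest fall of the 24 tested histone genes in both spermatocyte stages against day 7. It was at 609 and 373 CPM on day 1, 617 and 501 CPM on day 3, 277 and 286 CPM on day 7, 16.5 and 11.0 CPM in L/Z, and 25.4 and 14.3 CPM in pachytene. The spermatocyte libraries all lay far below the testis libraries. Its log2 fold change was -4.40 ± 0.41 in L/Z against day 7 (SE, adjusted p = 7.42e-06, edgeR) and -3.83 ± 0.39 in pachytene against day 7 (adjusted p = 1.55e-05), and both calls held under every alternative tried. H1fx, the linker histone H1X, was at 26.9 and 28.4 CPM on day 7, 25.3 and 86.0 CPM in L/Z, and 33.2 and 76.0 CPM in pachytene, and passed no test. Its replicates within each spermatocyte stage differed by more than the stages did.

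H3f3a and H3f3b encode the same H3.3 protein, and their transcripts moved apart in L/Z. H3f3a was at 35.5 and 36.0 CPM on day 1, 52.5 and 34.0 CPM on day 3, 43.9 and 41.2 CPM on day 7, 93.9 and 86.0 CPM in L/Z, and 106 and 61.5 CPM in pachytene. H3f3b was at 755 and 511 CPM on day 1, 742 and 688 CPM on day 3, 580 and 538 CPM on day 7, 221 and 224 CPM in L/Z, and 961 and 470 CPM in pachytene. In L/Z against day 7, H3f3a had a log2 fold change of 1.08 ± 0.31 (SE, adjusted p = 0.0100) and H3f3b one of -1.33 ± 0.36 (adjusted p = 0.00666), with libraries that did not overlap in either gene. In pachytene against L/Z, H3f3b rose by 1.68 ± 0.36 (adjusted p = 0.0111), and H3f3a was at -0.10 ± 0.31 (adjusted p = 0.866). The H3f3a rise in L/Z was -0.30 under plain library sizes, still 1.41 above the median of all genes there, and was lost without either day 7 library. The H3f3b rise in pachytene was lost without L/Z replicate 2 or pachytene replicate 1 and with only the stages compared (adjusted p up to 0.0552).

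The 3 H2A variants have known roles in the germ line. H2afx encodes H2A.X, which is phosphorylated at meiotic breaks and over the sex chromosomes; it was at 93.7 and 70.4 CPM on day 1, 212 and 127 CPM on day 3, 94.0 and 78.1 CPM on day 7, 22.9 and 42.2 CPM in L/Z, and 58.6 and 63.1 CPM in pachytene. Both L/Z libraries lay below all others. Its fall in L/Z against day 7 was -1.37 ± 0.35 (SE, adjusted p = 0.00528) and held under every alternative tried, whereas the value of 0.87 ± 0.35 in pachytene against L/Z did not pass (adjusted p = 0.110). H2afy encodes macroH2A1, a marker of the silenced sex body; it was at 139 and 176 CPM in pachytene against 59.8 and 88.2 CPM in L/Z, with 99.1 to 161 CPM in the testis libraries. Its rise in pachytene against L/Z was 1.08 ± 0.28 (adjusted p = 0.0246), lost without L/Z replicate 1 or pachytene replicate 2 and with only the stages compared. H2afz encodes H2A.Z, which marks promoters; it was at 7.64 and 5.69 CPM on day 1, 16.9 and 8.79 CPM on day 3, 9.32 and 8.60 CPM on day 7, 8.27 and 12.02 CPM in L/Z, and 23.0 and 17.2 CPM in pachytene, whose libraries lay above all others. Its rise in pachytene against day 7 was 1.16 ± 0.38 (adjusted p = 0.0187). This call was lost without either day 7 library or pachytene replicate 1, and under plain library sizes.

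**Figure D5:**
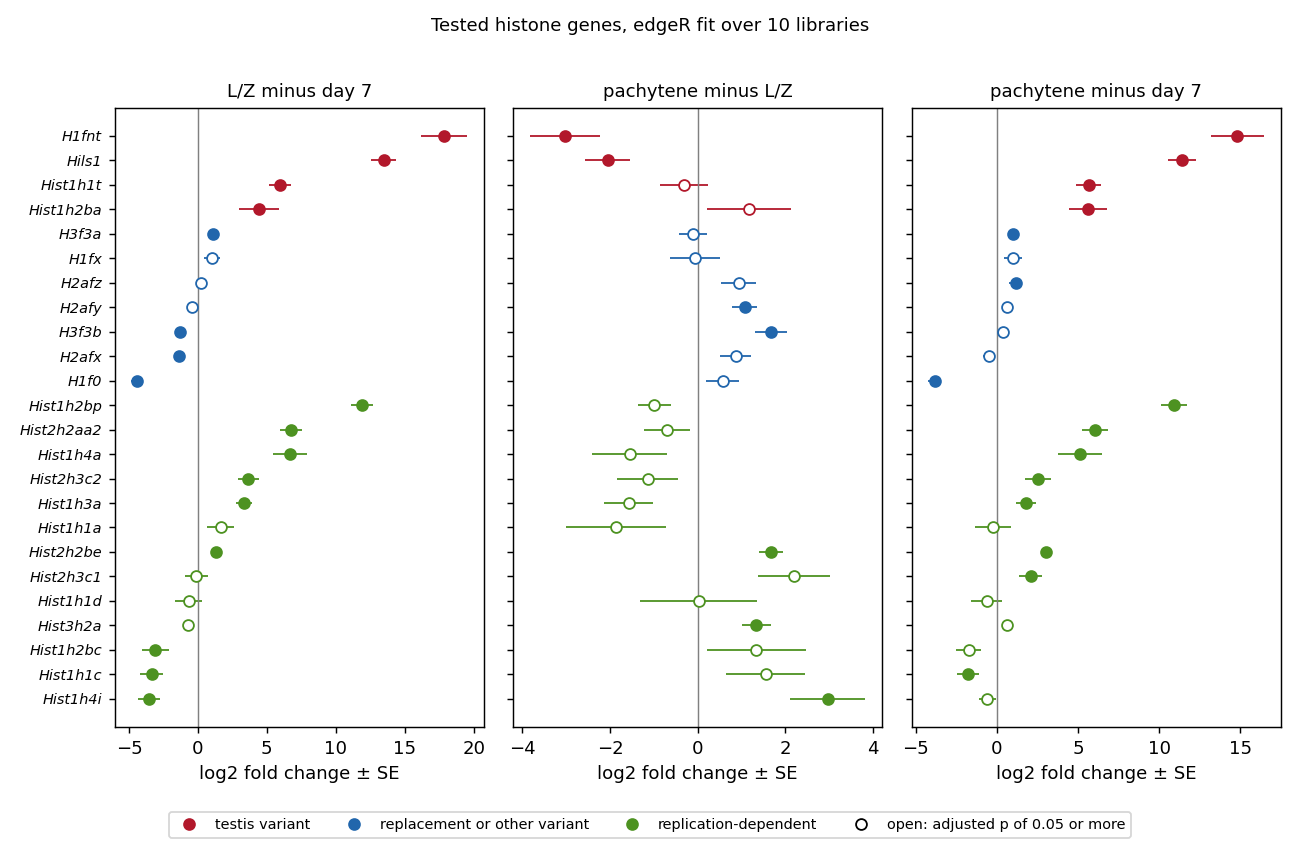
Log2 fold change with its standard error for the 24 tested histone genes in 3 comparisons, L/Z minus day 7, pachytene minus L/Z and pachytene minus day 7, from the fit over 10 libraries. Filled points have an adjusted p under 0.05 and colours give the class; all 4 testis variants lie right of 0 against day 7, H1fnt and Hils1 lie left of 0 in pachytene minus L/Z at -3.03 and -2.05, and replication-dependent copies lie on both sides of 0 in L/Z minus day 7.

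Other genes of histone biology were read from lists chosen with results of these data known, and no list was tested as a set. Their splits depend on scaling. Of all genes, 36.5% were higher and 42% lower in L/Z against day 7, 9.03% and 13.2% in pachytene against L/Z, and 35.1% and 40.1% in pachytene against day 7. Under plain library sizes these shares were 24.8% and 58.8%, 22.1% and 6.56%, and 26.8% and 52.2%.

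Genes of S phase and DNA replication, the process to which the clustered histone genes are coupled, gave 2 higher and 14 lower of 26 in L/Z against day 7, with a median log2 fold change of -1.40, and 0 higher and 24 lower under plain library sizes. Mcm2, a subunit of the replicative helicase, was at 7.18 ± 2.22 CPM in L/Z against 190.2 ± 11.0 CPM on day 7 (SD, n = 2). Pola1, the catalytic subunit of DNA polymerase alpha, was at 1.52 ± 0.596 CPM in L/Z against 38.2 ± 2.81 CPM on day 7, and Cdt1, a licensing factor, at 1.88 ± 0.598 against 53.4 ± 3.64 CPM. In pachytene against day 7 the count was 3 higher and 15 lower, and 0 higher and 19 lower under plain library sizes. The replication-dependent copies gave 6 higher and 3 lower of 13 in L/Z against day 7. Hist1h1c, Hist1h4i and Hist1h2bc fell there, and Hist1h2bp was among those that rose. Hist1h2bp reached the level of the filter in spermatocyte libraries alone, so its rise is built into its being tested. Whether any copy moved with the S phase genes was not tested.

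Factors that form, regulate or degrade stem-loop histone mRNA gave 3 higher and 5 lower of 14 in L/Z against day 7, and 2 higher and 11 lower under plain library sizes. Mif4gd, which links the stem-loop binding protein to translation, was at 331 ± 34.4 CPM in L/Z against 42.3 ± 3.00 CPM on day 7 (2.97 ± 0.25, adjusted p = 3.81e-06, edgeR), and Lsm11 of the U7 particle that cuts histone pre-mRNA at 2.57 ± 0.193 against 22.6 ± 0.0285 CPM (-3.10 ± 0.38, adjusted p = 4.31e-05). Histone chaperones gave 6 higher and 8 lower of 23 in L/Z against day 7, and 9 higher and 4 lower in pachytene against day 7. Under plain library sizes these were 3 higher and 17 lower, and 5 higher and 11 lower, so that the balance in pachytene turned. Nasp, a carrier of H3-H4 with a testis form, was at 2746 ± 131 CPM in L/Z against 214 ± 17.4 CPM on day 7 (3.68 ± 0.29, adjusted p = 2.70e-06). Anp32e, which removes H2A.Z from chromatin, was at 5.54 ± 3.86 CPM in L/Z against 166 ± 4.43 CPM on day 7 (-5.16 ± 0.50, adjusted p = 9.58e-06), and Atrx, which deposits H3.3 with Daxx, at 17.5 ± 16.5 against 291 ± 3.26 CPM. In pachytene against L/Z chaperones gave 4 higher and 0 lower, and 10 higher and 0 lower under plain library sizes.

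Further histone variants gave 3 higher and 4 lower of 7 in L/Z against day 7, and 2 higher and 4 lower under plain library sizes. H2afb1, a short H2A variant of the germ line, was at 580 ± 109 CPM in L/Z and 62.9 ± 36.4 CPM in pachytene (SD, n = 2), against no count on day 7, and was lower in pachytene than in L/Z (-3.21 ± 0.52, adjusted p = 0.00414, edgeR). H2afy3 was higher in L/Z than on day 7, at 35.9 ± 0.855 against 9.53 ± 0.682 CPM, a call lost under plain library sizes. Cenpa, the H3 variant of centromeres, was at 2.50 ± 1.27 CPM in L/Z against 48.9 ± 7.43 CPM on day 7 (-4.53 ± 0.78, adjusted p = 4.14e-04). Genes of histone replacement gave 10 higher and 1 lower of 13 in L/Z against day 7 and 1 higher and 5 lower in pachytene against L/Z, the direction that H1fnt and Hils1 took. Under plain library sizes these were 9 higher and 3 lower, and 1 higher and 5 lower. This list shares Tnp1, Tnp2, Prm1 and Prm2 with the spermatid markers. Genes of meiotic silencing, which act on H2A.X and macroH2A chromatin, gave 4 higher and 5 lower of 12 in L/Z against day 7 and 4 higher and 1 lower in pachytene against L/Z. Under plain library sizes these were 1 higher and 8 lower, and 8 higher and 0 lower. Hormad1, an axis protein that recruits the silencing machinery, was at 64.3 ± 6.38 CPM in pachytene against 18.5 ± 5.48 CPM in L/Z (1.83 ± 0.44, adjusted p = 0.0178), and Mdc1, which spreads phosphorylated H2A.X, was at 593 ± 130 CPM in L/Z against 143 ± 9.99 CPM on day 7 (2.06 ± 0.32, adjusted p = 2.17e-04), a call lost under plain library sizes. Of the genes that passed on these lists in L/Z against day 7, plain library sizes turned the sign of Mcm7, Rrm1, Npm3 and Hormad2.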

How the data were processed

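The deposited RNA table holds raw counts per gene symbol, 1 column per library, and 5 summary categories of HTSeq, per the file headers. Those categories held 44.7% to 64.5% of the reads and entered neither library sizes nor tests. The submitters' processing notes name HTSeq 0.6.1, BWA 0.7.8, edgeR 3.6.8, Bowtie 0.12.7 and the mm9 build. The role of each tool, the strand setting and any poly(A) selection were not given in the sources used here. RNA was taken with TRIzol, per the labels' protocols, which judge the adult fractions by microscopy.

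Genes were filtered with filterByExpr (minimum count 10), which left 16872. All 10 libraries were scaled by TMM and fitted together by stage with edgeR 4.0.16 (R 4.3.3), leaving 5 residual degrees of freedom. Tests were two-sided quasi-likelihood F tests, adjusted by Benjamini-Hochberg over all genes and called at 0.05. Standard errors were derived from the F statistic and the log2 fold change. The 5 comparisons were day 3 against day 1, day 7 against day 3, L/Z against day 7, and pachytene against L/Z and against day 7. A stage at 0 counts was set at 3 counts over its libraries, and ratios against 1 to 3 counts carry exact 95% intervals; both cover counting error only. Every variant was named, with the 6 replication-dependent copies of most counts, the up to 4 largest rises and falls of at least 1 CPM per comparison, and up to 4 members per list. Hist2h2ac, Hist2h2ab, other neighbours of named copies and the genes named for a changed sign or a lost call were named after their values were seen. Members and lists were chosen with earlier results of these data known. The test was tried on simulated counts with 1 spread for all genes. Over the 5 comparisons it recovered 3% to 10% of 2-fold changes and 52% to 73% of 4-fold changes. A gene that did not pass can still have changed 2-fold. Promoters came from RefSeq tables (GRCm38.p6), where 76 of 77 members matched and 69 had a window. Alternatives were DESeq2 1.42.0, median-ratio or plain library sizes, no filter, only the stages compared, the replicate number as a block (in all stages, or in the spermatocyte stages alone), and each library left out in turn. The small RNA table was not used.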

Additional observations from a re-analysis of the deposited data

How the results depend on the processing

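Of 39 calls of a histone gene in the 5 comparisons, 19 kept their direction and call under every alternative that tested the gene. Among these, Hist1h2ba in pachytene against day 7 was tested in 16 of 18 alternatives, having been filtered out of the rest. Of the other 20, 19 lost their call under at least 1, and 2 turned sign, both under plain library sizes in L/Z against day 7: H3f3a (-0.30), which is also among the 19, and Hist2h2be (-0.048). That scaling moved the median log2 fold change of all genes from -0.31 to -1.71 in L/Z against day 7, from -0.06 to 0.49 in pachytene against L/Z and from -0.27 to -1.10 in pachytene against day 7. Beyond the values given with the results, the number of histone genes called on day 7 against day 3 differed between fits. It was 1 with DESeq2, 1 with only the stages compared (H1f0) and 4 with the testis stages alone, against 0. Those fits called 5.6%, 6.84% and 14% of all genes, against 1.49%. In pachytene against L/Z the number of histone genes called was 3 with only the stages compared, against 7. The shares of all genes called were 6.83% and 22.2%. With each library left out in turn, the count ran from 0 to 0 for day 3 against day 1, from 0 to 1 for day 7 against day 3, from 15 to 23 for L/Z against day 7, from 2 to 9 for pachytene against L/Z and from 14 to 22 for pachytene against day 7; where a stage kept a single library, it is assumed to vary like the others. With the replicate number as a block the counts were 0, 0, 17, 7 and 16 in that order. Deviations of same-numbered replicates correlated at 0.746 between L/Z and pachytene and at -0.153 to 0.005 between the other pairs of stages. The numbers thus go together in the spermatocyte stages alone, as a hint from the data that the labels do not give. The block in those stages alone was added after seeing the data. With it the counts were 19 in L/Z against day 7, 11 in pachytene against L/Z and 14 in pachytene against day 7. The fit reported gave 17, 7 and 15. All genes passed at 77.8%, 37.7% and 77.8% with that block, against 78.5%, 22.2% and 75.2%. The causes were not tested. Log2 levels of replicates had an SD of difference of 0.880 in L/Z, 0.715 in pachytene and 0.191 to 0.473 in whole testis, and copies with few counts in the shallow L/Z replicate 1 are limited by its depth.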
